A study of Mus musculus with 9 samples.

Results

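Small leucine-rich proteoglycans (SLRPs) are secreted matrix proteins built from leucine-rich repeats, most of which carry chondroitin, dermatan or keratan sulfate chains. The 10 SLRP genes described here were *Dcn*, *Bgn* and *Aspn* of class I, *Lum*, *Fmod*, *Prelp*, *Kera* and *Omd* of class II, and *Ogn* and *Epyc* of class III. They were taken by gene symbol from the deposited expression table of mouse tibia, and all 10 were found among its 18272 genes.

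SLRPs bind fibrillar collagens and are known for setting the diameter and spacing of collagen fibrils in bone, tendon, cartilage and cornea. Decorin and biglycan also bind TGF-β, and biglycan freed from the matrix can engage Toll-like receptors on macrophages. In the skeleton, decorin and biglycan lie in osteoid and periosteum, fibromodulin and PRELP are abundant in tendon and ligament, osteomodulin belongs to mineralized matrix, and epiphycan is a protein of growth plate cartilage.

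The libraries came from 3 NGT, 3 T1D and 3 Lira mice, all female C57BL/6J, which were 10 to 11 weeks old when purchased and had 1 week of acclimation before any injection. NGT (normal glucose tolerance) mice were injected with citrate vehicle, and their labels give saline as the treatment. T1D mice received a single injection of 150 mg/kg streptozotocin, which destroys pancreatic beta cells, and saline from 2 weeks later. Lira mice received the same streptozotocin and then 0.6 mg/kg/day of liraglutide, a drug that activates the GLP-1 receptor. Treatment lasted 8 weeks in the methods and in the labels of Lira mice 1 and 2, whereas the label of Lira mouse 3 gives 9 weeks. Streptozotocin was thus shared by T1D and Lira mice, and each library was 1 tibia of 1 mouse, cleaned of muscle before RNA extraction and enriched for polyadenylated RNA.

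The deposited values were estimated (expected) read counts and FPKM, and the total per library was between 13086373 and 16528394 counts. A count of 0 allows up to 3 counts, which is 0.182 to 0.229 per 1e+06 counts of the unscaled library total and covers counting error only. CPM below are counts per 1e+06 of a total scaled between libraries (TMM), on which this limit differs somewhat. All 10 members passed the low-count filter (10 or more counts in 3 or more libraries), as did 13960 genes in total. Bone markers were present, since 10 of 10 osteoblast genes and 6 of 6 osteocyte genes were tested, with 8 and 3 of them counted in all 9 libraries. Of 10 chondrocyte genes only 6 were tested and 4 counted in all 9 libraries, and the list summed to 3.43 to 73 CPM. Skeletal muscle markers (12 genes) nevertheless summed to 92713 to 255284 CPM, lowest in T1D mouse 1. That library stood apart for the SLRPs as well, being the highest of 9 for 8 of the 10 members, so the fitted differences of the members and the gene lists are also given without it, and ratios and sums are given mouse by mouse or as ranges. In whole tibia, fewer cells of a type and less RNA per cell cannot be told apart.

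Most SLRP genes lie beside one another in the mouse genome. In RefSeq's order of protein-coding genes on GRCm38.p6, *Dcn*, *Lum*, *Kera* and *Epyc* follow each other on chromosome 10, *Aspn*, *Omd* and *Ogn* follow *Ecm2* on chromosome 13, and *Prelp* and *Fmod* are neighbours on chromosome 1 next to *Optc*, while *Bgn* is on chromosome X. The 3 genes of the chromosome 13 cluster lie within the span of *Cenpp*, a centromere protein gene that was at 0.935 to 4.48 CPM. Reads of overlapping genes cannot be separated with certainty because no strand setting is given in the sources used here. Counts were not whole numbers in 9 of 9 libraries for *Bgn* and *Omd*, in 8 for *Aspn*, in 2 for *Ogn*, in 1 for *Dcn* and in 0 for the other members. The cause of these fractions was not tested.

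RefSeq's promoter table of GRCm38.p6 held an entry for 8 of the 10 genes, all but *Dcn* and *Lum*. The 250 bases before the start are shown for *Prelp* and *Fmod*, the neighbouring pair whose levels varied most alike without T1D mouse 1, and for *Bgn*, *Aspn* and *Ogn*, the members in which a searched motif was found. They lie at chr1:133921402-133921651 on the minus strand for *Prelp* and, on the plus strand, at chr1:134037004-134037253 for *Fmod*, chrX:73483351-73483600 for *Bgn*, chr13:49544193-49544442 for *Aspn* and chr13:49607765-49608014 for *Ogn*. Each is printed 5′ to 3′ in the direction of its gene, and capitals mark matches to a searched motif on either strand.
Prelp: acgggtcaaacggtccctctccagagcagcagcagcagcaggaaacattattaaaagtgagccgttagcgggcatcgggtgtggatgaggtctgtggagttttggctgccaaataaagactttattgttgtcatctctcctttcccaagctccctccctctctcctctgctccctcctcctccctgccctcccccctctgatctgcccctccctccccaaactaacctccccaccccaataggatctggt
Fmod: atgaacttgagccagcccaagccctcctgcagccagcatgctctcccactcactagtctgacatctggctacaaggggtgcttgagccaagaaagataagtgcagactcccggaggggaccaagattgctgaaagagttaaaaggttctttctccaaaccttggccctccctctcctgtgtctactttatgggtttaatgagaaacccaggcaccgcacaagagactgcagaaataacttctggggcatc
Bgn: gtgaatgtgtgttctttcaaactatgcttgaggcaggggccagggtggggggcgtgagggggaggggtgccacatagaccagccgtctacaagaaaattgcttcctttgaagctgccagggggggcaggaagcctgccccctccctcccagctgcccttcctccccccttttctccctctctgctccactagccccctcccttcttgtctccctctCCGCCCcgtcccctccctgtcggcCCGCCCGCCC
Aspn: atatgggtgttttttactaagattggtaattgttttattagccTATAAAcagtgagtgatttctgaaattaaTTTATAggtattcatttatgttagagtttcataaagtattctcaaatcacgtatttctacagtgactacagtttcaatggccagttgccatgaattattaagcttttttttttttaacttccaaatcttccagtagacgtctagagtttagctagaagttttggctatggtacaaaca
Ogn: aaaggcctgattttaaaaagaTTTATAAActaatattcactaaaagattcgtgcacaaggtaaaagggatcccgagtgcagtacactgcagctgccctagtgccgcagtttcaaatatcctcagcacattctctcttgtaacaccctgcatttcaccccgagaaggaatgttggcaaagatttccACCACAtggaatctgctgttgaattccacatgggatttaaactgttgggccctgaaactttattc

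The motifs searched were the TATA box TATAAA, the GC box GGGCGG, the AP-1 site TGANTCA, the RUNX core TGTGGT and the SMAD site CAGACA. The 250 bases of *Bgn* held 3 GC boxes, starting 34, 10 and 6 bases before the gene's start and partly overlapping, against at least 1 in 32.7% of all 32851 promoters. *Aspn* and *Ogn* held TATAAA on either strand, the nearest 178 bases before the start in *Aspn* and 227 in *Ogn*, where 2 matches overlap, and 12.4% of all promoters hold it. *Ogn* also held a RUNX core 65 bases before its start, which 14% of promoters hold. AP-1 letters (6.75% of promoters) and SMAD letters (17.1%) were in 0 of the 8 members' windows, and *Prelp*, *Fmod*, *Kera*, *Omd* and *Epyc* held none of the 5 motifs. A match describes letters and is not evidence of binding.

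Compared per length in the deposited FPKM, *Dcn* was the most abundant SLRP transcript, with a mean of 314 ± 211 FPKM (SD, n = 9 libraries) and a range of 169 to 834. *Bgn* followed at 108 FPKM (32.5 to 471) and was below *Dcn* in 9 of 9 libraries. *Fmod* averaged 56.3 FPKM (16.6 to 126), below *Bgn* in 8 of 9 libraries. The next 4 genes stood close together, *Lum* at 37.8, *Ogn* at 30.5, *Aspn* at 28.5 and *Prelp* at 27.3 FPKM. Their order was not stable, since *Lum* exceeded *Ogn* in only 1 of 9 libraries and ranked after it by the median (21.7 against 30.2 FPKM), and *Aspn* exceeded *Prelp* in 5. *Omd* (5.42 FPKM), *Kera* (3.13) and *Epyc* (0.572) were the scarcest, and *Prelp* was above *Omd* in 9 of 9 libraries. The ranges of all neighbours in this order overlapped over the 9 libraries.

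On the CPM scale, which compares libraries for a given gene, the 10 members together reached 697 to 1682 CPM in NGT mice, 977 to 3224 in T1D mice and 794 to 1173 in Lira mice. The group means were 1075 ± 531, 1761 ± 1268 and 938 ± 205 CPM (SD, n = 3 each), and the groups overlapped. Without T1D mouse 1 the T1D sums were 1082 and 977 CPM, within the NGT range. *Dcn* alone made up between 35.2% (Lira mouse 3) and 57.8% (Lira mouse 1) of that sum.

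The class I gene *Dcn*, which encodes decorin, the collagen-binding proteoglycan that also sequesters TGF-β, was at 635, 351 and 387 CPM in NGT mice 1 to 3. It was at 1234, 622 and 476 CPM in T1D mice and at 489, 503 and 279 CPM in Lira mice. T1D mouse 1 was the highest of all, T1D mouse 2 lay just below NGT mouse 1, and the 3 groups overlapped. *Bgn*, which encodes biglycan, a proteoglycan that osteoblasts lay down in bone matrix, was at 268, 88.5 and 108 CPM in NGT mice and at 921, 135 and 178 CPM in T1D mice. In Lira mice *Bgn* was at 143, 125 and 165 CPM, a narrow range inside that of the NGT mice. The value of T1D mouse 1 was more than 2 times that of every other library for 3 members, which no other library was for any member. *Aspn*, which encodes asporin, a collagen- and TGF-β-binding relative of decorin that lacks the usual sugar chain, was at 118, 29.9 and 57.6 CPM in NGT mice, 141, 43.7 and 45.2 in T1D mice and 27.8, 33.4 and 62.9 in Lira mice. Mouse 1 was high for *Aspn* in the NGT and T1D groups and lowest in the Lira group.

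Among class II genes, *Lum*, which encodes the keratan sulfate proteoglycan lumican, was at 75.8, 23 and 51.1 CPM in NGT mice, 284, 47.8 and 55.6 CPM in T1D mice and 24, 36.1 and 38.9 CPM in Lira mice. All 3 Lira values lay below all 3 T1D values, although T1D mouse 2 (47.8) and Lira mouse 3 (38.9) were close. *Fmod*, which encodes fibromodulin, a regulator of tendon collagen fibrils, was at 300, 85.2 and 106 CPM in NGT mice, 284, 97.9 and 76.4 in T1D mice and 52.1, 247 and 118 in Lira mice. Each group thus held 1 library far above the other 2 (mouse 1, mouse 1 and mouse 2), and the group ranges nearly coincided. *Prelp*, whose product anchors basement membranes to collagen, had the same 3 high libraries, at 166, 221 and 121 CPM, while the other 6 lay between 39.5 and 63.1 CPM. *Kera*, which encodes keratocan, best known from the cornea, was at 10, 6.26 and 4.43 CPM in NGT mice, 14.3, 2.55 and 1.13 in T1D mice and 1.64, 6.54 and 3.73 in Lira mice. *Omd*, the gene of osteomodulin (osteoadherin), was at 13.5, 1.39 and 7.92 CPM in NGT mice, 25.1, 5.43 and 4.13 in T1D mice and 8.49, 5.37 and 9.76 in Lira mice. Its lowest value, in NGT mouse 2, rested on 18 counts.

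Of class III, *Ogn*, which encodes osteoglycin (mimecan), was the steadiest member, at 93.6, 54.6 and 69.7 CPM in NGT mice, 94.5, 77.4 and 101 in T1D mice and 48.5, 94.6 and 53 in Lira mice. It was also the 1 member with its maximum in T1D mouse 3. *Epyc*, the cartilage gene of epiphycan, was barely counted, with 20, 0 and 0 counts in NGT mice, 88, 10 and 1 in T1D mice and 3, 3 and 4 in Lira mice. Only NGT mouse 1 and T1D mice 1 and 2 exceeded 4 counts. The spread between mice of a group differed among the members accordingly. The biological coefficient of variation, the SD between mice as a fraction of the mean in edgeR's estimate, was 0.283 for *Ogn* and 0.371 for *Dcn*, between 0.523 and 0.603 for *Aspn*, *Lum*, *Bgn*, *Fmod* and *Prelp*, 0.713 for *Omd*, 0.738 for *Kera* and 1.32 for *Epyc*, against a median of 0.307 over all tested genes. Thus 9 of the 10 members varied more between mice than the median gene did.

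**Figure D1:**
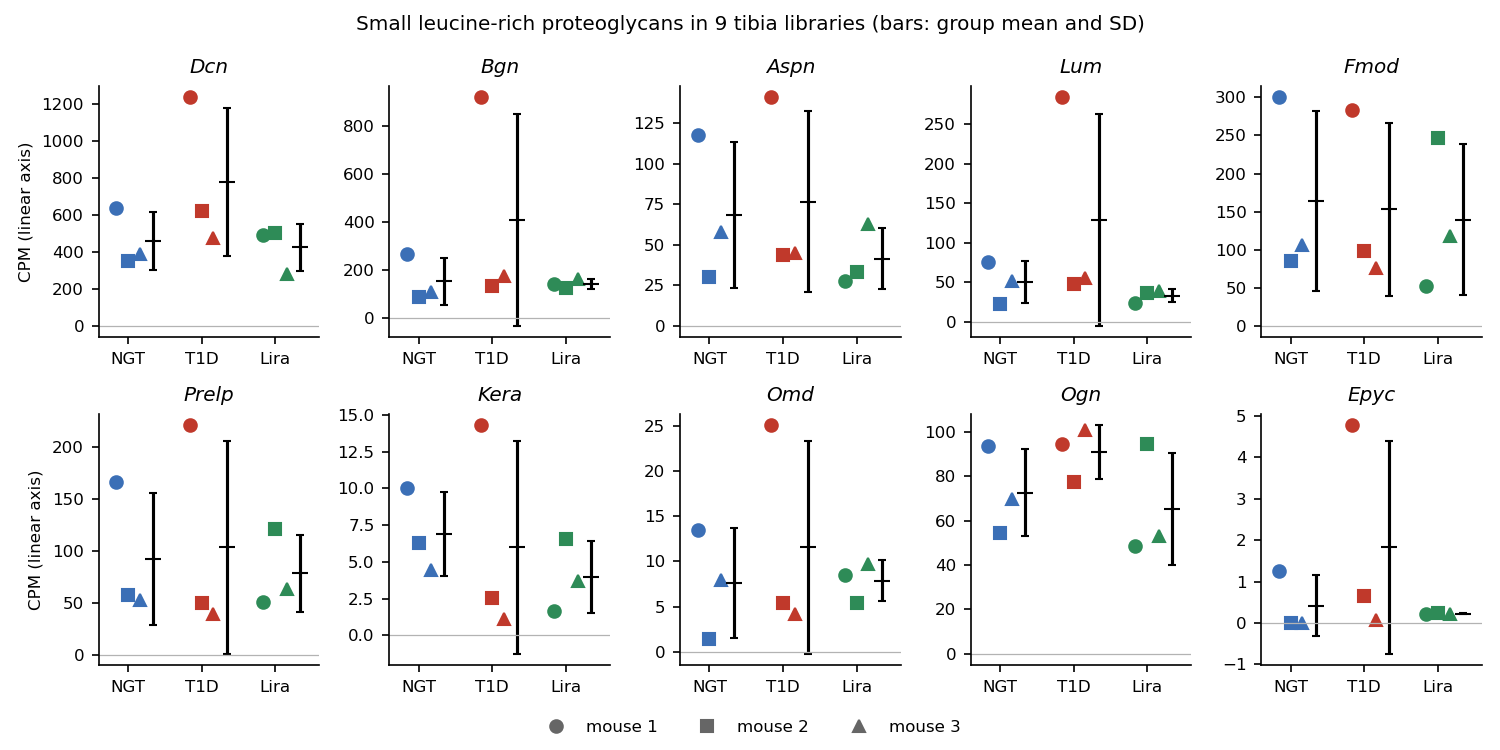
CPM (linear axes that include 0) of the 10 SLRP genes in each library, by group, with the symbol giving the mouse number and the black bars the group mean and SD (n = 3). T1D mouse 1 is the highest library in 8 of the 10 panels, and *Fmod*, *Prelp* and *Kera* also have high values in NGT mouse 1 and Lira mouse 2.

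The first comparison, T1D against NGT, asks what untreated diabetes changed. The fitted difference was positive for 8 of the 10 members, against 52.1% of all tested genes, and its median over the members was 0.466 on the log2 scale, against 0.017 over all genes. *Bgn* (1.41 ± 0.73 SE), *Lum* (1.37 ± 0.705) and *Dcn* (0.764 ± 0.417) had the largest log2 differences among the members above 1 CPM on average, and *Fmod* (-0.098) and *Kera* (-0.202) lay on the other side of 0. None of these passed the test. DEGs, which needed a Benjamini-Hochberg adjusted p under 0.05 and a fold change over 2, numbered 0 of 10 members and 0 of 13960 genes (0%) in the quasi-likelihood test of edgeR, and also 0 and 0 by DESeq2 and by limma. An unadjusted p under 0.05 was reached by 0 of 10 members, against 3.95% of all genes, and the lowest among them was 0.0855 for *Lum* (adjusted p = 0.977 in edgeR's test). The T1D and NGT mice overlapped for all 10 members, against 3.52% of genes that were higher and 5.08% that were lower in every T1D mouse.

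Without T1D mouse 1 the values of this comparison changed. The median over the 9 members then tested turned to -0.627, and the log2 differences of *Bgn* and *Lum* were 0.015 and 0.046. *Dcn* was at 0.26 and *Ogn* at 0.296, whereas *Prelp* moved to -1.051 and *Kera* to -1.903 (unadjusted p = 0.0249 in edgeR's test), both higher in NGT mice. *Aspn* (-0.627), *Fmod* (-0.912) and *Omd* (-0.669) were below 0 as well. Thus 2 of 3 class I, 1 of 5 class II and 1 of 1 class III members were above 0, against 48.6% of all genes. In T1D mouse 1 the summed macrophage markers (8 genes) were 985 CPM, against 35.6 to 173 in the other libraries, and the summed osteoblast markers (10 genes) were 2229 CPM, against 272 to 845. Their part in the SLRP values was not tested.

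Deviations from the group means correlated across genes at 0.583, 0.647 and 0.283 between equally numbered NGT and T1D mice. Between NGT and T1D mice of different numbers the values were -0.697 to 0.067. Equal numbers were taken as pairs on this alone, since no label gives a pairing. The highest value of all, 0.78, joined NGT mouse 1 and Lira mouse 3, whose numbers differ. The pairs and the blocked p-values below come from the same data, so these p-values are descriptive. With the number as a block in the fit over all 9 libraries, 2 members had an unadjusted p under 0.05, *Dcn* (0.04) and *Bgn* (0.0495), against 5.39% of all genes. With the block and only these 2 groups, a fit added after seeing the data, there were 4 (*Bgn*, *Dcn*, *Epyc* and *Lum*), against 14.0% of all genes, and no member was a DEG in either blocked fit. DESeq2, unblocked, gave 2 such members (*Bgn* and *Lum*), against 4.99% of genes. Within numbers, *Dcn* was higher in the T1D mouse by 0.957, 0.825 and 0.299 on the log2 CPM scale, *Bgn* by 1.78, 0.607 and 0.728 and *Lum* by 1.904, 1.053 and 0.121. *Ogn* and *Epyc* were also higher in the T1D mouse at all 3 numbers, *Ogn* by 0.014, 0.502 and 0.536. The other 5 members differed in both directions, for example *Kera* by 0.506, -1.251 and -1.849. With 3 pairs an exact paired test cannot pass the threshold, so none was run for single members.

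Lira was then compared with T1D, the comparison that bears on the treatment of diabetic mice. All 10 members had a fitted log2 difference below 0, whereas 55.3% of all tested genes were above 0, and the median was -0.737 over the members and 0.042 over all genes. *Lum* had the largest difference of the well-counted members, -1.971 ± 0.719 (SE), followed by *Bgn* (-1.512 ± 0.732), *Aspn* (-0.891 ± 0.619) and *Dcn* (-0.875 ± 0.418). *Aspn*, *Fmod* (-0.135), *Prelp* (-0.396), *Ogn* (-0.478), *Omd* (-0.555), *Kera* (-0.599) and the barely counted *Epyc* (-2.988 ± 1.659) differed by less than 2 SE. DEGs again numbered 0 of the 10 members and 0 of all genes (0%) in edgeR's test, with 0 members called by DESeq2 or limma and 1 gene outside the family, *Gpm6b*, called by DESeq2 (named after its value was seen). *Lum* was the 1 member with an unadjusted p under 0.05 (0.0237; adjusted p = 0.978 in edgeR's test), against 3.33% of all genes, and DESeq2 gave 3 such members (*Lum*, *Bgn* and *Dcn*), against 4.44% of genes. *Lum* was likewise the 1 member whose groups did not overlap, where 3.40% of genes were lower and 3.74% higher in every Lira mouse. At 1 of 10, both counts rest on a single gene. The unadjusted p of *Lum* was 0.0754 without Lira mouse 1 and 0.0533 without Lira mouse 2 in edgeR's test, 0.0548 with the replicate block and 0.0563 by limma. The 1 member under 0.05 was then *Ogn* (0.011) without Lira mouse 2 and *Dcn* (0.0241) with the block in edgeR's test.

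T1D mouse 1 carried much of this difference too. Without it, the median over the 9 members then tested was -0.101, the log2 difference of *Lum* was -0.648 (unadjusted p = 0.182 in edgeR's test), that of *Bgn* -0.119 and that of *Dcn* -0.373, and *Fmod*, *Prelp*, *Kera* and *Omd* turned positive, with 0.676, 0.815, 1.101 and 0.72. *Ogn* changed least. The comparison shares its T1D mice with the first, so a high T1D value gives opposite signs in both, and the signs of the members in the 2 comparisons are not separate evidence. Equal numbers were not taken as pairs between the T1D and Lira groups.

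Lira was last compared with NGT, treated diabetic with normal tibia. The median log2 difference over the 10 members was -0.234 (0.036 over all genes), and 1 of 10, *Omd* at 0.052, was above 0, against 55.5% of genes. This median was 0.201 without NGT mouse 1, where *Dcn*, *Bgn*, *Fmod*, *Prelp* and *Ogn* changed sign, -0.633 without Lira mouse 2 and -0.019 with the replicate block. Without T1D mouse 1 the medians were -0.235 here, -0.101 for Lira against T1D and -0.627 for T1D against NGT, so the order of the 3 comparisons by size depended on that library. Apart from the barely counted *Epyc* (-0.935 ± 1.686 SE), the largest sizes were those of *Kera* (-0.801 ± 0.878 SE), *Aspn* (-0.727 ± 0.618) and *Lum* (-0.601 ± 0.698), each near its SE, and *Bgn* (-0.102 ± 0.717) and *Dcn* (-0.112 ± 0.415) were near 0. The count of DEGs was 0 of 10 members and 0 of all genes (0%) by edgeR, DESeq2 and limma. An unadjusted p under 0.05 was reached by 0 members and 0.781% of genes in edgeR's test, and no member separated the groups, where 2.49% of genes were higher and 1.78% lower in every Lira mouse.

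**Figure D2:**
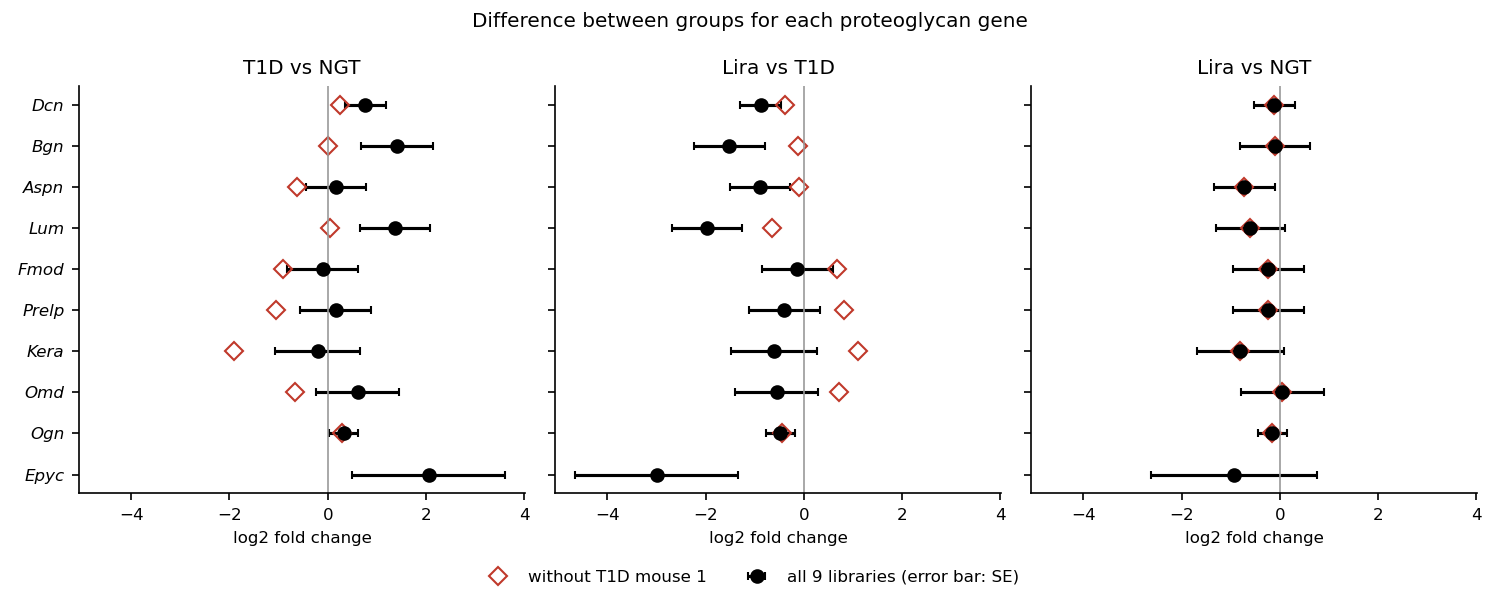
Log2 fold change of each SLRP gene (x axis) in the 3 comparisons, fitted by edgeR over all 9 libraries (filled points, with SE) and without T1D mouse 1 (open diamonds; *Epyc* did not pass the count filter then). In both comparisons that involve T1D mice most diamonds lie away from the filled points, for *Bgn* at 0.015 in place of 1.41, whereas *Ogn* hardly moves.

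Ratios between genes of the same library hardly depend on how libraries are scaled. Of 6 ratios compared between the 3 groups (18 tests), only *Fmod* to *Lum* separated any groups. Its log2 ratio was 1.982, 1.885 and 1.049 in NGT mice, 0.001, 1.032 and 0.458 in T1D mice and 1.115, 2.774 and 1.604 in Lira mice. Every T1D mouse was thus below every NGT and every Lira mouse, but T1D mouse 2 missed NGT mouse 3 by a margin far smaller than the spread. The mean difference was -1.142 for T1D minus NGT and 1.334 for Lira minus T1D, with an exact two-sided permutation p = 0.1 for each, the smallest that 3 against 3 mice allow, and 0.9 after Benjamini-Hochberg adjustment over the 18 tests. Both differences share the same T1D mice, so they are not separate evidence. The ratios of *Bgn*, *Aspn* and *Ogn* to *Dcn* overlapped in all comparisons, and so did those of *Dcn* and *Bgn* to *Col1a1*, the main collagen chain of bone. For *Dcn* to *Col1a1* the log2 ratio ran from -1.379 in T1D mouse 1 to 1.964 in NGT mouse 2, and the group means differed by at most 0.27.

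**Figure D3:**
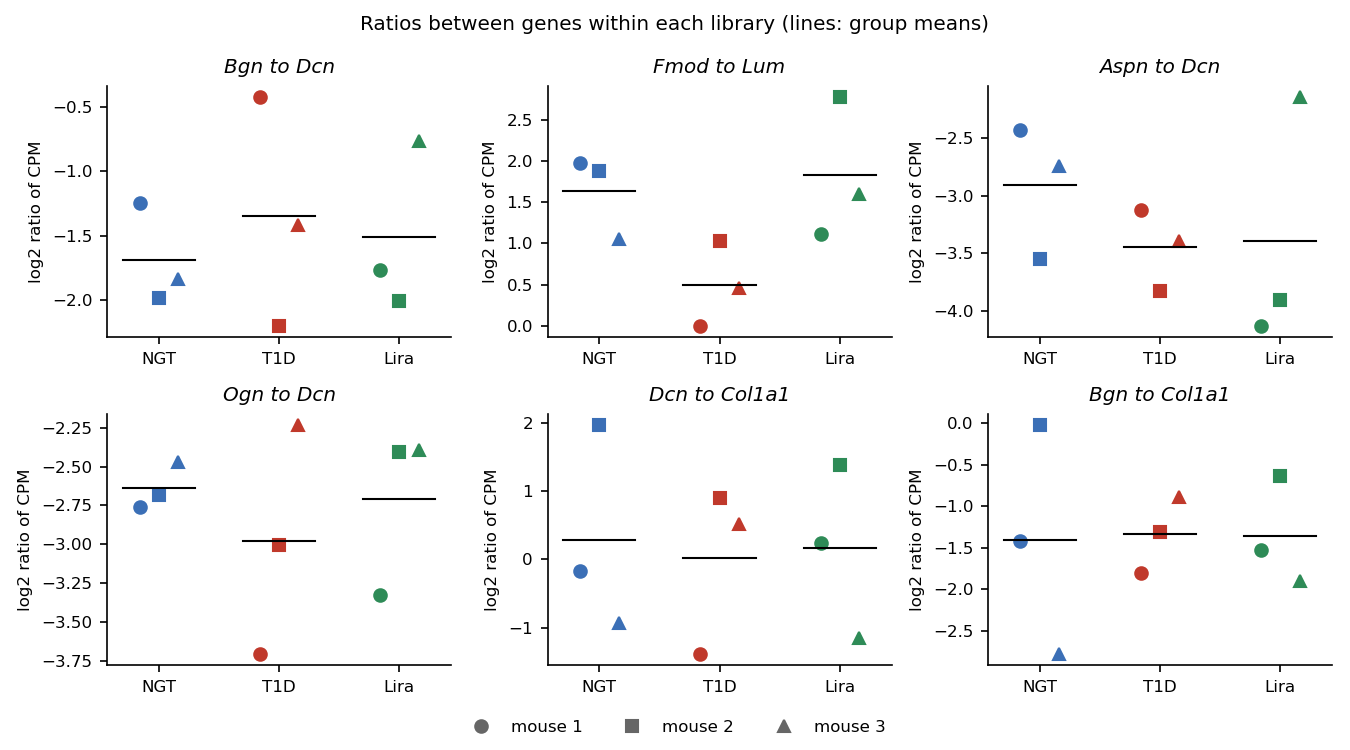
Log2 ratio of CPM between 2 genes in each library, by group, with lines at the group means and the symbol giving the mouse number. *Fmod* to *Lum* is the panel in which the T1D mice (0.001 to 1.032) lie below both other groups, while the groups overlap in the other 5.

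Across the 9 libraries the members varied together, but to different degrees. Pairs of other genes were not measured for comparison. The 5 genes outside the lists most like the members reached r = 0.969 to 0.994 with their mean profile, so varying together is not particular to the family. Over the 45 pairs the Pearson r of log2 CPM had a median of 0.674, from 0.268 (*Kera* and *Ogn*) to 0.926 (*Bgn* and *Lum*), and 17 pairs had an adjusted p under 0.05 by exact permutation (8 with a prior count of 0.5 and 37 with library size scaling). Without the 2 libraries farthest from the median of the first gene the median r was 0.393, and without T1D mouse 1 it was 0.445. The permutations, here and for the marker lists below, shuffled all 9 libraries and took no account of group or mouse number. By rank (Spearman), 1 pair kept an adjusted p under 0.05, *Prelp* and *Kera*. Of the 17 pairs, 8 kept an r over 0.5 without the 2 farthest libraries, and the other 9 did not.

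Among the 8 were the 3 pairs of *Fmod*, *Prelp* and *Kera*. *Fmod* and *Prelp* correlated at r = 0.924 (exact permutation p = 0.00152, adjusted 0.0213; rho = 0.867, p = 0.00451, adjusted 0.0676), and at 0.855 without NGT mouse 1 and T1D mouse 1. *Prelp* and *Kera* correlated at r = 0.879 (exact permutation p = 0.00133, adjusted 0.0213; rho = 0.933, p = 0.00075, adjusted 0.0337), and at 0.73 without the same libraries. *Fmod* and *Kera* correlated at r = 0.846 (exact permutation p = 0.00522, adjusted 0.0294; rho = 0.85, p = 0.00607, adjusted 0.0683), and at 0.683 without them. *Bgn* and *Lum*, at r = 0.926 (exact permutation p = 0.00283, adjusted 0.0213; rho = 0.75, p = 0.0255, adjusted 0.164), were at 0.448 without NGT mouse 1 and T1D mouse 1. *Aspn* and *Lum* were at r = 0.882 (exact permutation p = 0.000422, adjusted 0.019; rho = 0.867, p = 0.00451, adjusted 0.0676) and 0.757 without those 2 libraries. *Dcn* with *Epyc* (r = 0.864, adjusted exact permutation p = 0.0213; rho = 0.828, adjusted 0.0788) and *Dcn* with *Bgn* (r = 0.821, adjusted 0.0495; rho = 0.55, adjusted 0.264) were at 0.949 and 0.767 without T1D mouse 1 and Lira mouse 3, and at 0.666 and 0.433 without T1D mouse 1 alone. The r of *Epyc* rests on NGT mouse 1 and T1D mice 1 and 2, the only libraries in which it exceeded 4 counts. Genes on the same chromosome had a median r of 0.671 over 10 pairs, against 0.674 over the other 35, and for deviations from the group means these were 0.799 and 0.759. Genes of the same class had a median of 0.671 over 14 pairs. These differences were not tested.

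**Figure D4:**
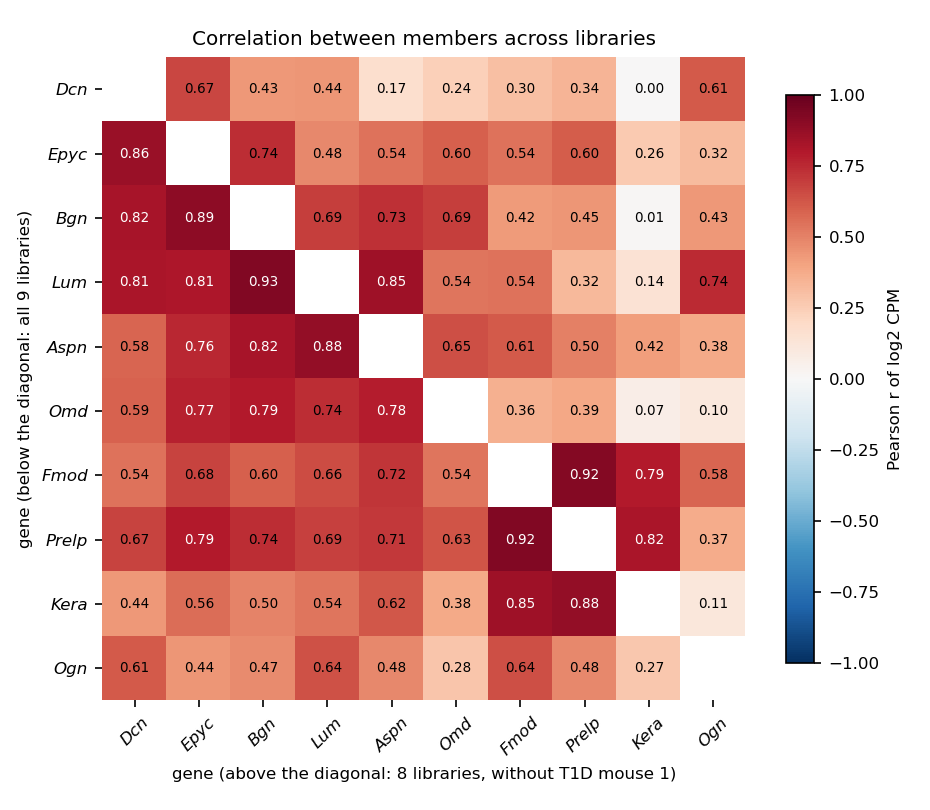
Pearson r of log2 CPM for each pair of SLRP genes, over all 9 libraries below the diagonal and over 8 libraries without T1D mouse 1 above it. The *Fmod*, *Prelp* and *Kera* block stays dark on both sides, whereas *Dcn* with *Kera* drops from 0.437 to 0.

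The members were also set beside summed markers of 12 cell types, none of which contains an SLRP gene (120 relations, 22 with an adjusted p under 0.05 by exact permutation, 6 of these also by rank). *Dcn* followed the fibroblast and periosteum markers most closely (10 genes, summing to 657 to 1759 CPM), at r = 0.964 (exact permutation p = 4.41e-05, adjusted 0.00529; rho = 0.983, p = 4.96e-05, adjusted 0.00595) and 0.892 without the 2 libraries farthest from the median of the markers. *Prelp* and *Fmod* were closest to the tendon and ligament markers (8 genes, 123 to 584 CPM). For *Prelp* r was 0.931 (exact permutation p = 0.000843, adjusted 0.0223; rho = 0.683, p = 0.0503, adjusted 0.232), and for *Fmod* 0.879 (exact permutation p = 0.00199, adjusted 0.0223; rho = 0.8, p = 0.0138, adjusted 0.148), with 0.718 and 0.717 without the 2 farthest libraries. *Aspn* was closest in size to the skeletal muscle markers, inversely, at -0.844, and to the osteoblast markers at 0.835 (exact permutation p = 0.00217, adjusted 0.0223; rho = 0.95, p = 0.000353, adjusted 0.0212). *Lum* (0.888) and *Omd* (0.881) were also near the osteoblast markers, but at 0.476 and 0.548 without the 2 farthest libraries. *Bgn* followed the macrophage markers at r = 0.961 (exact permutation p = 0.00024, adjusted 0.0144; rho = 0.933, p = 0.00075, adjusted 0.0212) and 0.767 without the 2 farthest libraries, and it was nearly as close to the osteocyte (0.932) and osteoblast markers (0.899), both with an adjusted p of 0.0223 by exact permutation. *Dcn* was also close to the osteocyte markers at 0.942 (adjusted exact permutation p = 0.0223; rho = 0.9, adjusted 0.0406), and *Epyc* to the tendon and ligament markers at 0.894 (adjusted exact permutation p = 0.0223; rho = 0.929, adjusted 0.0212) and 0.595 without the 2 farthest libraries. *Epyc* was at 0.908 with the osteocyte markers, and with 0 to 4 counts in 6 libraries its relations rest on the other 3. *Ogn* and *Kera* had no relation with an adjusted p under 0.05.

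All 10 members ran against the skeletal muscle markers, from r = -0.205 for *Ogn* to -0.871 for *Epyc*, with an adjusted p under 0.05 for *Bgn*, *Aspn* and *Epyc*. Without the 2 farthest libraries these were -0.367, -0.416 and -0.494, and *Dcn*, *Lum* and *Ogn* turned positive, with 0.478, 0.067 and 0.423. Muscle markers took a large and varying share of each library, and their part in the SLRP values was not tested. The summed muscle markers were 124090 to 255284 CPM in NGT mice, 92713 to 250208 in T1D mice and 133748 to 224036 in Lira mice, so the groups overlapped.

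The marker lists themselves differed between the groups as follows, with 0 genes of any list called a DEG by edgeR, and are read beside the 52.1% of all genes above 0 and 3.95% at an unadjusted p under 0.05 in T1D against NGT (55.3% and 3.33% in Lira against T1D). In T1D against NGT, the macrophage list had 8 of 8 genes above 0 and 5 at an unadjusted p under 0.05 (median log2 difference 2.72), the fibroblast and periosteum list 9 of 10 and 3 (0.566), the osteocyte list 5 of 6 and 3 (1.044), the osteoblast list 10 of 10 and 1 (0.807) and the osteoclast list 6 of 7 and 1 (1.846). The tendon and ligament list had 5 of 8 above 0 (0.358), the chondrocyte list 6 of 6 (1.5), the erythroid list 8 of 8 (1.042), the adipocyte list 6 of 7 (0.506), the neutrophil list 4 of 9 (-0.037) and the endothelial list 2 of 7 (-0.109), each with 0 genes at an unadjusted p under 0.05. The muscle list had 2 of 12 above 0 and 1 such gene, a lower one (-0.13). In Lira against T1D, 0 genes were above 0 in the macrophage, fibroblast, osteoblast, osteoclast and adipocyte lists, with medians of -2.002, -0.821, -1.154, -1.155 and -0.995, while all 8 erythroid (0.798) and all 9 neutrophil genes (1.087) were above 0. The osteocyte list then had 2 of 6 genes above 0 (-0.607), the tendon and ligament list 2 of 8 (-0.369), the chondrocyte list 2 of 6 (-0.256), the muscle list 6 of 12 (0.017) and the endothelial list 5 of 7 (0.232). An unadjusted p under 0.05 was reached there by 2 macrophage, 2 fibroblast and periosteum and 2 osteocyte genes, all lower, and by 1 muscle gene, a higher one. In Lira against NGT it was reached by 0 genes of the 12 lists, and the medians were 1.975 for the erythroid (8 of 8 above 0), 1.545 for the chondrocyte (5 of 6), 1.093 for the neutrophil (9 of 9), 0.73 for the osteoclast (6 of 7), 0.623 for the macrophage (8 of 8), 0.386 for the osteocyte, 0.01 for the tendon and ligament, -0.002 for the endothelial, -0.016 for the osteoblast, -0.128 for the muscle, -0.258 for the fibroblast and periosteum and -0.524 for the adipocyte list.

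Most of these list differences rested on T1D mouse 1. The macrophage sums of T1D mice 2 and 3 (91.1 and 133 CPM) lay within the NGT range of 35.6 to 141 CPM. Without T1D mouse 1, in a fit added after seeing the data, 48.6% of all genes were above 0 and 3% at an unadjusted p under 0.05 in T1D against NGT, and 58.7% and 2.36% in Lira against T1D. The macrophage list then had 8 of 8 genes above 0 with a median of 0.458 in T1D against NGT and 6 of 8 with 0.125 in Lira against T1D. For the osteoblast list these were 5 of 10 (-0.082) and 6 of 10 (0.109), for the fibroblast and periosteum list 6 of 10 (0.043) and 3 of 10 (-0.17), for the tendon and ligament list 3 of 8 (-0.198) and 6 of 8 (0.224), and for the muscle list 10 of 12 (0.178) and 2 of 12 (-0.24). The osteocyte list (5 of 6, 0.759, then 2 of 6, -0.489) and the osteoclast list (5 of 6, 1.394, then 1 of 6, -0.688) kept their signs. So did the erythroid list (8 of 8, 1.501, then 8 of 8, 0.371) and the neutrophil list (1 of 9, -0.346, then 9 of 9, 1.444). The chondrocyte and adipocyte lists turned to -1.181 and -0.547 in T1D against NGT and the endothelial list to 0.098. For Lira against T1D the chondrocyte list then had 4 of 4 genes above 0 (2.218), the adipocyte list 3 of 7 (-0.04) and the endothelial list 5 of 7 (0.206). Genes of the marker lists at an unadjusted p under 0.05 were then *Dpt* and *Mepe* in the first comparison and *Acan* and *Myh2* in the second, named after their values were seen. The part of any of these in the SLRP differences was not tested.

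**Figure D5:**
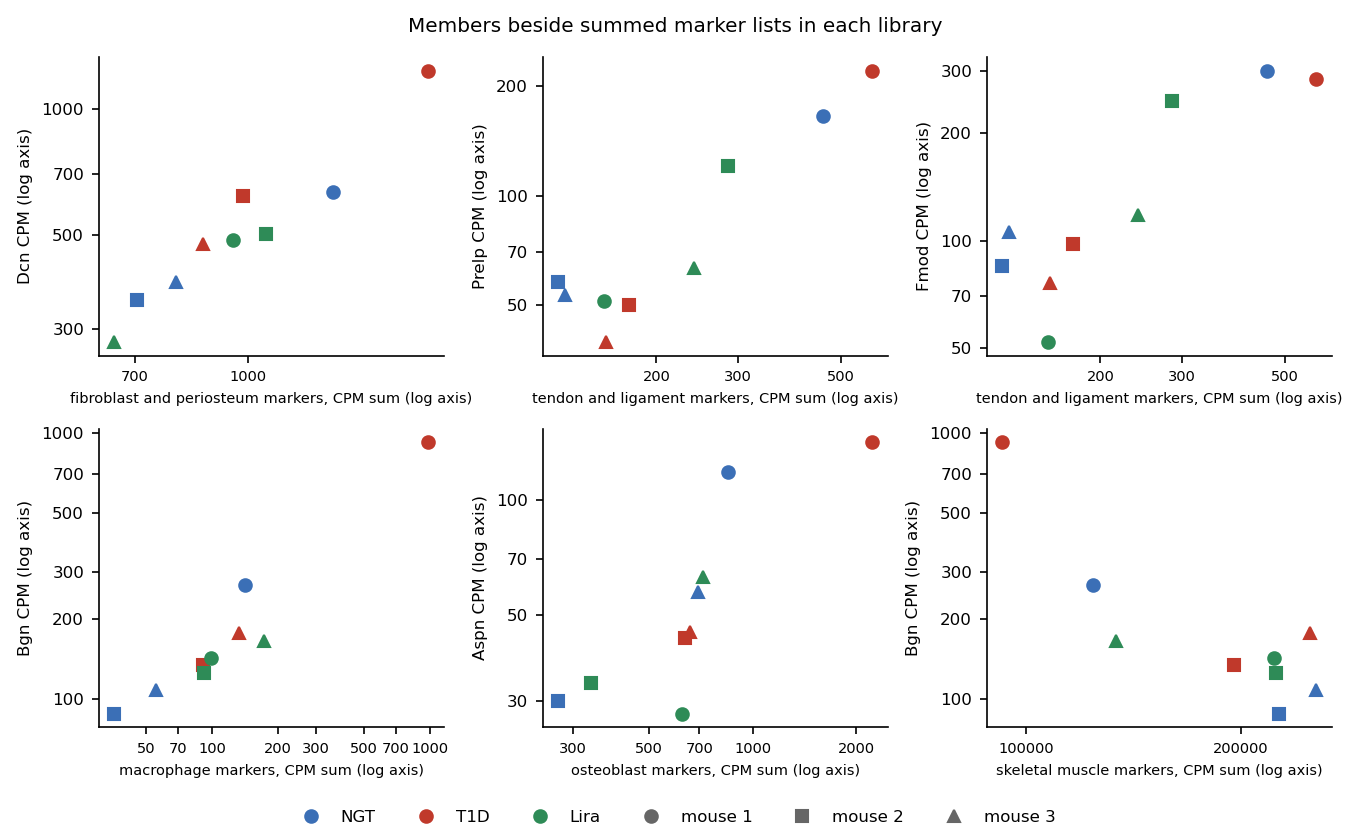
CPM of 5 SLRP genes in 6 panels against the summed CPM of a marker list in each of the 9 libraries (log axes), with colours for the groups and symbols for the mouse number. *Dcn* is higher where the fibroblast and periosteum markers are higher in nearly every library (rho = 0.983), *Prelp* and *Fmod* are high in the same 3 libraries as the tendon and ligament markers, and *Bgn* in T1D mouse 1 (921 CPM) goes with the highest macrophage and the lowest muscle sums.

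The genes around the SLRPs in their pathway are given in the order of their roles, each list with its genes at an unadjusted p under 0.05 in edgeR's test, since 0 genes of any list were DEGs, and are read beside the shares of all genes above. Among other SLRP genes, 1 of 6 tested reached it in T1D against NGT, *Tsku* (tsukushi) with a log2 difference of 1.56 ± 0.63 (SE), at 0.871 to 2.35 CPM in NGT mice and 1.7 to 8.81 in T1D mice. *Nyx* and *Podnl1*, at most 2.28 CPM, differed there by 0.053 ± 0.532 and 1.338 ± 1.215. In Lira against T1D 0 of 6 reached it, with a median of -0.131.

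The fibrillar collagens and their companions, the ligands of the SLRPs, leaned the same way as the members. In T1D against NGT 14 of 14 were above 0 with a median of 1.006, in Lira against T1D 0 of 14 with a median of -1.167, and 0 reached an unadjusted p under 0.05 in either. *Col3a1*, the chain of type III collagen, was at 323, 108 and 225 CPM in NGT mice, 1537, 152 and 121 in T1D mice and 69.6, 173 and 161 in Lira mice. *Col1a1* was at 719, 89.8 and 739, then 3208, 333 and 331, then 412, 193 and 618 CPM. As for *Bgn* and *Lum*, T1D mouse 1 was far above all others for both collagens, and T1D mice 2 and 3 lay within the NGT range. *Col5a2* and *Col6a1* had the same high library, with 281 and 320 CPM.

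Of the enzymes that build chondroitin and dermatan sulfate chains, 17 of 22 were above 0 in T1D against NGT with a median of 0.202, and 1 reached an unadjusted p under 0.05. It was *Xylt1*, the xylosyltransferase that starts the chain on the core protein, lower in every T1D mouse (0.851 to 1.47 CPM) than in every NGT mouse (2.22 to 2.47 CPM), with a log2 difference of -1.104 ± 0.438 (SE, adjusted p = 0.977 in edgeR's test). *Dse* and *Dsel*, which convert chondroitin to dermatan sulfate, differed by 1.098 ± 0.525 and 0.652 ± 0.42. Of 4 keratan sulfate genes, *B4galt1*, a galactosyltransferase, reached an unadjusted p under 0.05 in T1D against NGT (0.0466), with a log2 difference of 0.368 ± 0.158 and no overlap, at 54 to 68.7 CPM in NGT mice and 71.8 to 83.2 CPM in T1D mice. *Chst1* and *B4galt4* differed by 0.443 ± 0.507 and -0.266 ± 0.24, and their groups overlapped. In Lira against T1D the medians of these lists were -0.068 and -0.1, with 0 genes at an unadjusted p under 0.05.

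Growth factors and receptors that SLRPs bind showed little difference, with 8 of 11 above 0 in T1D against NGT, a median of 0.194 and 0 at an unadjusted p under 0.05. *Tgfbr2*, *Igf1r* and *Tgfbr3* differed there by 0.503, 0.366 and 0.289, each under 2 SE. Proteases that process or degrade SLRPs had 10 of 10 genes above 0 in T1D against NGT, with a median of 0.707 and 3 at an unadjusted p under 0.05, and 1 of 10 in Lira against T1D, with a median of -0.706 and 2. *Mmp14*, a membrane-bound metalloproteinase, was at 36, 16 and 23.7 CPM in NGT mice, 139, 37.6 and 41.9 in T1D mice and 27.4, 24.9 and 28.9 in Lira mice. Its T1D mice lay above all others, with log2 differences of 1.526 ± 0.511 and -1.427 ± 0.509 (SE) and adjusted p = 0.977 and 0.978 in edgeR's test. *Bmp1*, which cleaves the propeptide of biglycan, differed by 0.798 ± 0.322 and -0.913 ± 0.323, and *Mmp13*, the collagenase of bone and cartilage, by 3.207 ± 1.395 and -1.522 ± 1.303. The innate receptors *Tlr2*, *Tlr4* and *Cd44* had T1D against NGT differences of 1.808, 0.726 and 1.508 with SEs of 1.1, 0.471 and 1.014, and 0 of 4 in the list reached an unadjusted p under 0.05. In Lira against NGT, 0 genes of these 7 lists reached it.

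These values too changed without T1D mouse 1, in the same added fit. In T1D against NGT the collagens then had 3 of 14 genes above 0 (median -0.322), the chondroitin and dermatan sulfate genes 11 of 20 (0.022), the keratan sulfate genes 2 of 4 (0.004), the growth factor list 7 of 11 (0.137), the proteases 7 of 10 (0.365), the innate receptors 2 of 4 (0.063) and the other SLRP genes 4 of 6 (0.117). In Lira against T1D the medians were -0.051, 0.103, -0.087, -0.048, -0.125, 0.163 and 0.177 in the same order. *Mmp14* then differed by 0.653 ± 0.303 and -0.554 ± 0.303 (SE), *Bmp1* by 0.352 ± 0.236 and -0.468 ± 0.235 and *Mmp13* by 2.438 ± 1.441 and -0.755 ± 1.412. *Tsku* was at 0.606 and *Dse* at 0.424 in T1D against NGT, whereas *Xylt1* (-1.003 ± 0.51) and *B4galt1* (0.318 ± 0.173) moved little. Each gene named so far in this paragraph had an unadjusted p above 0.05 in edgeR's test. The genes of these lists under it were *Igf1r* (0.529) and *Ecm2* (-0.707) in T1D against NGT and *Chad* (2.318) in Lira against T1D, the last 2 named after their values were seen.

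The genes outside the lists whose levels followed the SLRPs most closely were ranked by Pearson r with the mean standardized profile of the 9 members averaging at least 5 CPM, over 9 libraries and 13783 genes. The first 5 were *Plac9b* (r = 0.994), *Serpinf1* (0.976), *Loxl3* (0.974), *Itgbl1* (0.973) and *Mrc2* (0.969), and without T1D mouse 1 they were at 0.984, 0.94, 0.934, 0.945 and 0.919. *Serpinf1*, which encodes the secreted factor PEDF, was at 86.3, 39.6 and 53 CPM in NGT mice, 160, 59.7 and 40.8 in T1D mice and 39.5, 64.4 and 45.7 in Lira mice. *Plac9b* has a near-identical copy, *Plac9a*, with which it can share reads, so its level is uncertain. These values describe likeness across these libraries, and they were picked as the highest of many.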

How the data were processed

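RNA-seq of 9 tibiae (3 NGT, 3 T1D and 3 Lira mice) was analysed from the table the authors deposited. The authors deposited an expected count per gene in each library, headed as read counts in the file, of which 30.2% are not whole numbers, and these were rounded here. They also deposited FPKM, which they scaled for gene length and library total. Per the submitters' processing notes the build was mm9, and the aligner, counting tool and strand setting are not given in the sources used here. FPKM served only to order genes by level and for alternatives. No sample column was left unassigned (0).

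The fits were run with edgeR 4.0.16 in R 4.3.3 (TMM, glmQLFit and glmQLFTest on 3 group means over 9 libraries), after removal of genes that lacked 10 counts in 3 libraries. DEGs needed an adjusted p under 0.05 and a fold change over 2, with Benjamini-Hochberg adjustment over all 13960 genes. CPM are counts per 1e+06 of the TMM-scaled total. Ratios and correlations used log2 CPM with a prior count of 2. Replicates are separate mice. The fit was tested on simulated data.

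Deviations from the group means correlated across genes at 0.583, 0.647 and 0.283 between equally numbered mice of the NGT and T1D groups, and at -0.244 to 0.615 for T1D and Lira and -0.173 to 0.727 for NGT and Lira. Only the first were all over 0.1 and taken as pairs. Between mice of different numbers and groups the values ran from -0.777 to 0.78. The labels give the numbers and no source of pairing.

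The members, gene lists and tests were chosen with earlier results of these data known. Named genes were the members, at most 3 genes of lowest p of each of 7 pathway lists, *Col1a1*, and the 5 most similar genes. *Gpm6b*, *Dpt*, *Mepe*, *Acan*, *Myh2*, *Ecm2* and *Chad* fall outside this rule and were named after their values were seen. Marker lists covered tendon and ligament, fibroblast and periosteum, osteoblast, osteocyte, chondrocyte, skeletal muscle, erythroid, neutrophil, macrophage, osteoclast, endothelial and adipocyte genes. Alternatives were DESeq2 1.42.0, limma 3.58.1 on log2(CPM + 1), library size scaling, no filter, only the 2 groups compared, the replicate block, and leaving out each mouse. Promoters are from RefSeq's GRCm38.p6 table; all 10 gene numbers carried the same symbol there.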

Additional observations from a re-analysis of the deposited data

How the results depend on the processing

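No member was called by edgeR, DESeq2 or limma in any comparison or under any alternative run. The count of DEGs among all genes was 0 throughout except for Lira against T1D under DESeq2, where it was 1. Each group held 3 mice, and the biological coefficient of variation was 0.523 or more for 8 of the 10 members. *Epyc*, with 0 to 4 counts in 6 of the 9 libraries, could not be fitted without NGT mouse 1, T1D mouse 1 or T1D mouse 2, since it then failed the count filter. The cause of the changes below was not tested.

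The median log2 difference over the members in T1D against NGT was 0.421 to 0.549 under the alternatives that kept all mice and -0.627 to 0.904 when single mice were left out (-0.627 without T1D mouse 1). The corresponding ranges were -0.961 to -0.556 and -1.111 to -0.101 (-0.101 without T1D mouse 1) for Lira against T1D, and -0.390 to -0.019 and -0.633 to 0.201 (0.201 without NGT mouse 1) for Lira against NGT. Members at an unadjusted p under 0.05 in T1D against NGT numbered 0 (552 of all genes), but 2 without NGT mouse 1 (1007 of all genes), 1 without T1D mouse 1 (413), 2 without T1D mouse 2 (720), 3 without T1D mouse 3 (693), 2 with the replicate block (752), 4 with the replicate block and only the 2 groups compared (1952), and 2 by DESeq2 (697). In Lira against T1D there was 1, *Lum* (465 of all genes), but 0 without T1D mouse 1 (325) or Lira mouse 1 (254), 2 without T1D mouse 2 (561), 3 without T1D mouse 3 (707), 0 by limma (380), 0 with the replicate block and only the 2 groups compared (258), and 3 by DESeq2 (620). It was *Ogn* in place of *Lum* without Lira mouse 2 (434) and *Dcn* with the replicate block (507). In Lira against NGT there were 0 throughout. The ratios with groups that did not overlap numbered 2, and 2 to 4 without single mice (4 without Lira mouse 3). Pairs of members with an adjusted p under 0.05 numbered 17, but 8 with a prior count of 0.5 and 37 with library size scaling.

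Several members changed sign when single mice were left out. In T1D against NGT the ranges were -0.627 to 0.817 for *Aspn*, -0.912 to 0.683 for *Fmod*, -1.051 to 0.904 for *Prelp*, -1.903 to 0.288 for *Kera* and -0.669 to 1.320 for *Omd*. In Lira against T1D they were -0.843 to 0.676 for *Fmod*, -0.854 to 0.815 for *Prelp*, -1.156 to 1.101 for *Kera* and -0.956 to 0.720 for *Omd*. In Lira against NGT they were -0.271 to 0.201 for *Dcn*, -0.382 to 0.558 for *Bgn*, -0.941 to 0.544 for *Fmod*, -0.693 to 0.504 for *Prelp*, -0.439 to 0.761 for *Omd* and -0.518 to 0.074 for *Ogn*. *Prelp* in T1D against NGT was at -1.2e-05 with the replicate block, -0.074 with the block and only the 2 groups, and -0.074 by limma. The replicate block, where NGT and T1D mice alone were taken as pairs, gave Lira against T1D values of 0.199 for *Fmod*, 0.124 for *Prelp* and 0.067 for *Kera*, and with only the 2 groups 0.026 for *Prelp* and 0.183 for *Kera*. In Lira against NGT the block gave 0.212 for *Bgn*, 0.061 for *Fmod*, 0.124 for *Prelp* and 0.553 for *Epyc*, and with only the 2 groups 0.067 for *Bgn* and 0.303 for *Epyc*. *Bgn* was at 0.066 by limma there, and *Omd* at -0.047 with library size scaling. The block with only the 2 groups was added after seeing the data.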
